A study of Mus musculus with 6 samples.

Results

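The genes that make nicotinamide adenine dinucleotide (NAD) and those that use it up were examined in the fasted liver of aged mice with and without *Sirt7*, itself an NAD-dependent deacylase. The set held 10 named genes of the 54115 genes of the GENCODE M21 annotation, and all 10 had enough reads to be tested. They were listed by name and by no threshold on their values, with earlier results of these data known. The liver RNA came from 3 wild-type (WT) and 3 *Sirt7* knockout (KO) male mice, all 24 months old and fasted for 16 h. The KO mice lacked *Sirt7* throughout the body, came from a line backcrossed to C57BL/6J, and were bred as littermates of the WT mice from heterozygous parents. The sources used here name no other allele or agent that separated the groups.

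NAD carries electrons in fuel oxidation and is also cut by enzymes that transfer or release its ADP-ribose part, each time setting nicotinamide free. Cells rebuild NAD from nicotinamide (the salvage route, through *Nampt*), from nicotinamide riboside (through *Nmrk1*), from nicotinic acid (the Preiss-Handler route, through *Naprt* and *Nadsyn1*) and, mainly in liver, from tryptophan by way of quinolinate (the de novo route, through *Qprt*). The *Nmnat* enzymes serve all of these routes. *Nnmt* methylates nicotinamide and so removes it from salvage, while *Parp1* and *Cd38* consume NAD.

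The DNA just before the start sites of *Nampt* and *Parp1* is shown as an illustration. These were the only 2 of the 10 genes whose length-corrected levels did not overlap between the genotypes. *Nampt* was lower and *Parp1* higher in KO mice. The share of all genes without overlap in these levels was not computed. It was 16.8% of tested genes for levels scaled to library size only, so the choice of these 2 is not a result about them. Both stretches are the 250 bases before the RefSeq start site in GRCm38, printed 5′ to 3′ on the plus strand, on which both genes lie. They occupy chr12:32820085-32820334 and chr1:180568641-180568890. Capitals mark the GC box (GGGCGG on either strand) and the E-box (CACGTG), the motif that the clock proteins CLOCK and BMAL1 bind.

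Nampt: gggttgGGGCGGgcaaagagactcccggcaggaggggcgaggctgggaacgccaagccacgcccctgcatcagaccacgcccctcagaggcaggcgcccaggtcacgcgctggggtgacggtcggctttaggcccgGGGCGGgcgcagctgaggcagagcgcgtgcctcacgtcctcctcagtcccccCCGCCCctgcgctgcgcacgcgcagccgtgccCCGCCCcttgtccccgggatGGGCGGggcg

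Parp1: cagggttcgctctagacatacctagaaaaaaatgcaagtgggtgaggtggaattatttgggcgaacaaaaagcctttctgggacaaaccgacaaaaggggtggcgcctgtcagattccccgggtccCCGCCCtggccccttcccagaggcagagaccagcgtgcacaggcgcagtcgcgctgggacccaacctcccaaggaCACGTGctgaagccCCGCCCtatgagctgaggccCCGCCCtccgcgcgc

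The *Nampt* stretch held 5 GC boxes and no E-box, and 75.6% of its bases were G or C. The *Parp1* stretch held 3 GC boxes and 1 E-box, which began at base -49 from the start site, and 61.6% of its bases were G or C. A median of 52.4% of bases were G or C over all 32851 such stretches. RefSeq stretches were found for 8 of the 10 genes, with no entry for *Naprt* and *Nnmt*. A GC box was present in 5 of the 8, against 32.7% of all stretches, and the E-box in 1 of the 8, against 6.02%. The cAMP response element (TGACGTCA) and the D-box (TTATGNAA), both searched on either strand, and the TATA box (TATAAA), searched on the given strand, were found in 0 of the 8, against 1.55%, 3.07% and 7.59% of all stretches. The marked motifs do not overlap each other, and a match is only a match of letters.

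Between 9994860 and 13424776 reads per mouse were assigned to transcripts. The *Sirt7* gene (ENSMUSG00000025138.14, chr11:120618372-120625240, minus strand) was still read in the KO mice. Its level was 49.3 ± 5.19 counts per 1000000 (CPM) in WT mice and 37.0 ± 7.34 CPM in KO mice (SD, n = 3 each), and the full coding transcript of 10 exons took 63.9 to 76.0% of its reads in WT mice and 18.3 to 39.8% in KO mice. The direction of the gene level turned with transcript length. In transcripts per 1000000 (TPM), which account for length, *Sirt7* had 27.3 to 34.4 in WT mice and 34.7 to 68.0 in KO mice without overlap. The log2 fold change of -0.41 became 0.80 with length offsets in edgeR (adjusted p = 0.27). This does not show more full transcript, which had 381 to 429 reads in WT mice and 77.5 to 135 in KO mice. Reads on short coding transcripts count for more in TPM. That of 427 bases took 0 to 1.02% of reads in WT mice and 13.7 to 22.1% in KO mice. That of 1218 bases took 0 to 10.2% and 26.8 to 45.4%. The library labels were taken as given. The deposited values are estimated reads per transcript, which were summed per gene, and CPM here are those sums scaled to the library size with the TMM factor of edgeR. Fold changes and p-values came from the quasi-likelihood test of edgeR over 12524 genes with Benjamini-Hochberg adjustment, and a gene was called changed when its fold change passed 1.5 and its adjusted p-value was under 0.05. For 3 mice against 3, an exact permutation test cannot give a p-value below 0.1. In whole liver, a lower level in each cell and fewer cells that express a gene cannot be told apart.

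To compare levels between genes, TPM were used. *Nnmt* had the highest level with a median of 289 TPM over the 6 mice (range 161 to 449). *Naprt* followed at 108 TPM (81.8 to 142) and *Qprt* at 68.0 TPM (52.6 to 92.9), so the entry enzymes of the nicotinic acid and quinolinate routes were both far above *Nampt*, the entry enzyme of nicotinamide salvage, at 5.28 TPM (3.07 to 7.22). *Nmrk1* lay between them at 24.6 TPM (12.3 to 38.3). The *Nmnat* genes stood at 10.2 TPM for *Nmnat1* (7.87 to 12.4) and 5.74 TPM for *Nmnat3* (4.55 to 7.46), next to *Nadsyn1* at 10.7 TPM (6.98 to 14.4) and *Parp1* at 6.24 TPM (4.77 to 7.55). *Cd38* was lowest at 1.60 TPM (0.932 to 2.27). Ranges of neighbours in this order did not overlap for *Nnmt* over *Naprt*, *Qprt* over *Nmrk1*, *Nmnat1* over *Parp1*, and *Nampt* over *Cd38*. The other neighbours had overlapping ranges. Among these, *Naprt* was above *Qprt* in 6 of 6 mice, *Nmrk1* above *Nadsyn1* in 5, *Nadsyn1* above *Nmnat1* in 4, *Parp1* above *Nmnat3* in 4 and *Nmnat3* above *Nampt* in 3.

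**Figure D1:**
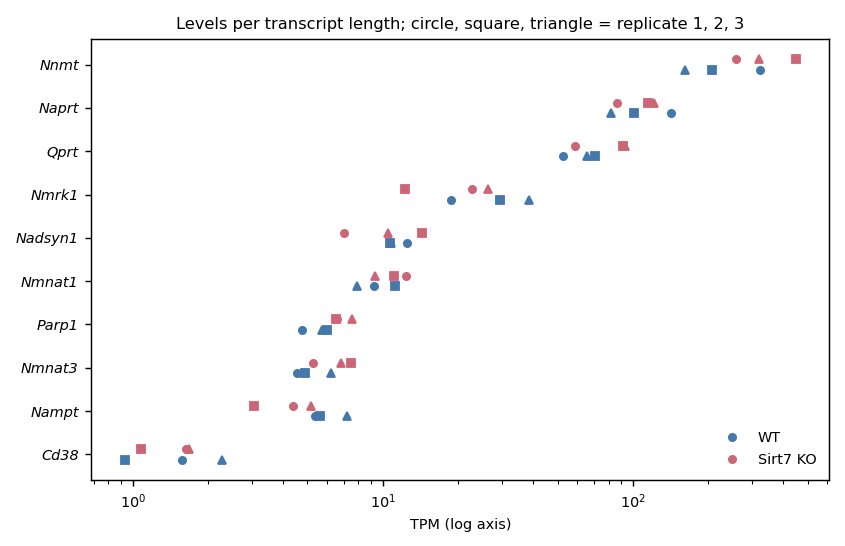
Level of each of the 10 NAD genes in TPM (log axis), with a point for each of the 3 WT and 3 *Sirt7* KO mice. *Nnmt* lies highest with a median of 289 TPM and *Cd38* lowest with 1.60 TPM, and *Nampt* lies below *Naprt*, *Qprt* and *Nmrk1*.

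Of the 10 genes, 0 were called changed, against 0.00798% of all tested genes (1 of 12524), and their adjusted p-values ran from 0.24 to 0.99. An unadjusted p-value under 0.05 was reached by 3 of 10, against 11.3% of all tested genes. These were *Nampt*, lower in KO mice (4.78% of all genes were lower at this threshold), and *Nnmt* and *Parp1*, higher in KO mice (6.54%). The WT and KO values of 1 gene, *Nampt*, did not overlap, against 16.8% of all genes, 8.09% with KO mice lower and 8.74% with KO mice higher. DESeq2 called 0 of the 10 as well, against 2.11% of all genes without and 1.81% with length offsets. Mean levels were higher in KO mice for 7 genes and lower for 3, with a median log2 fold change of 0.13 (-0.01 over all tested genes) and a median absolute log2 fold change of 0.37 (0.23 over all).

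**Figure D2:**
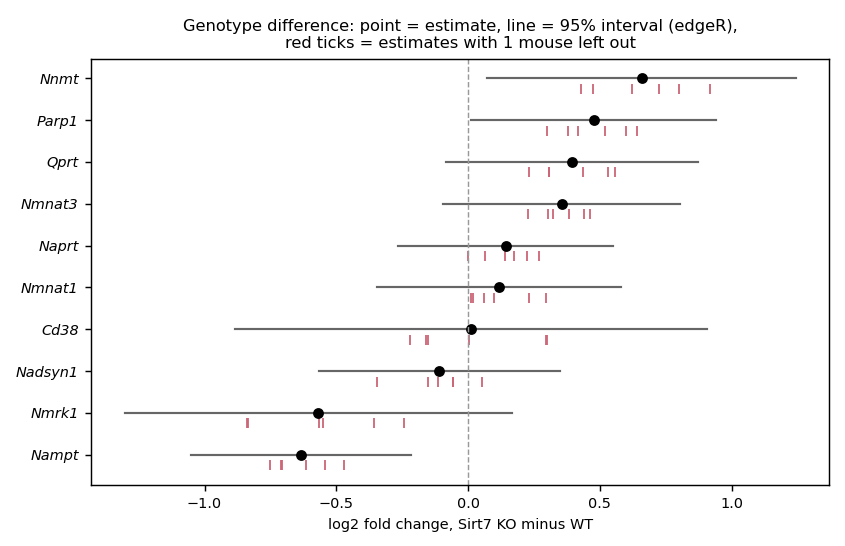
Log2 fold change (KO over WT) of each gene by edgeR, with its 95% interval as a bar and small ticks for the 6 fits that each left out 1 mouse. The interval lies below 0 for *Nampt* (-1.05 to -0.22) and above 0 for *Nnmt* (0.07 to 1.24) and *Parp1* (0.01 to 0.94), and includes 0 for the other 7 genes.

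Among the salvage enzymes, *Nampt* (ENSMUSG00000020572.8, chr12:32819545-32853349, plus strand), the rate-limiting enzyme that joins nicotinamide to a ribose phosphate, had 25.6, 25.4 and 34.3 CPM in WT mice. In KO mice it had 21.2, 15.9 and 17.8 CPM. Every KO mouse was thus below every WT mouse, and the same held in TPM. The means were 28.4 ± 5.10 CPM in WT mice and 18.3 ± 2.71 CPM in KO mice (SD, n = 3 each), 1.55-fold lower in KO mice. On the log2 scale the difference was -0.63 ± 0.18 (SE), with an adjusted p = 0.24 in edgeR, so it was not called. Its unadjusted p = 0.0076, which 3.11% of tested genes undercut, stood beside an exact permutation p = 0.1, the smallest 3 mice against 3 allow. With length offsets the log2 fold change was -0.48 in edgeR (unadjusted p = 0.087) and -0.47 in DESeq2 (unadjusted p = 0.11). These values rest on 280 to 464 reads per WT mouse and 150 to 232 per KO mouse. Nearly all of them, 98.1 to 100%, were assigned to the full coding transcript of 11 exons, whose start lies directly after the stretch printed above.

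*Nmrk1* (ENSMUSG00000037847.14, chr19:18631950-18652428, plus strand), which phosphorylates nicotinamide riboside, varied most of the 10 genes between mice, with 3.04 times as many CPM in the highest mouse as in the lowest. It had 24.7, 41.4 and 57.6 CPM in WT mice and 37.4, 19.0 and 27.1 CPM in KO mice. The groups overlapped, since WT replicate 1 was below 2 of the KO mice. The log2 fold change of -0.57 ± 0.32 had an adjusted p = 0.57 in edgeR. Without WT replicate 3 the log2 fold change was -0.24, and without KO replicate 1 it was -0.84. Protein-coding transcripts took 61.1 to 71.9% of its reads, and most of the remainder went to transcripts that keep an intron.

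The *Nmnat* genes encode the enzymes that complete NAD in different compartments, *Nmnat1* in the nucleus and *Nmnat3* in mitochondria. *Nmnat1* (ENSMUSG00000028992.13, chr4:149467572-149485202, minus strand) had 14.7, 19.6 and 13.5 CPM in WT mice and 17.8, 19.6 and 14.5 CPM in KO mice, and these ranges lay almost on top of each other. Its log2 fold change was 0.12, with a 95% interval from -0.34 to 0.58 and an adjusted p = 0.88 in edgeR. *Nmnat3* (ENSMUSG00000032456.13, chr9:98287435-98420438, plus strand) had 8.98, 11.3 and 12.4 CPM in WT mice and 12.4, 14.6 and 14.9 CPM in KO mice. The groups overlapped only near 12.4 CPM, and the log2 fold change of 0.35 ± 0.20 had an adjusted p = 0.56 in edgeR. The reads behind *Nmnat3* were 106 to 168 per mouse. *Nmnat2*, the third member of the family and known mainly from neurons, was left untested with 0 to 7 reads per mouse.

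**Figure D3:**
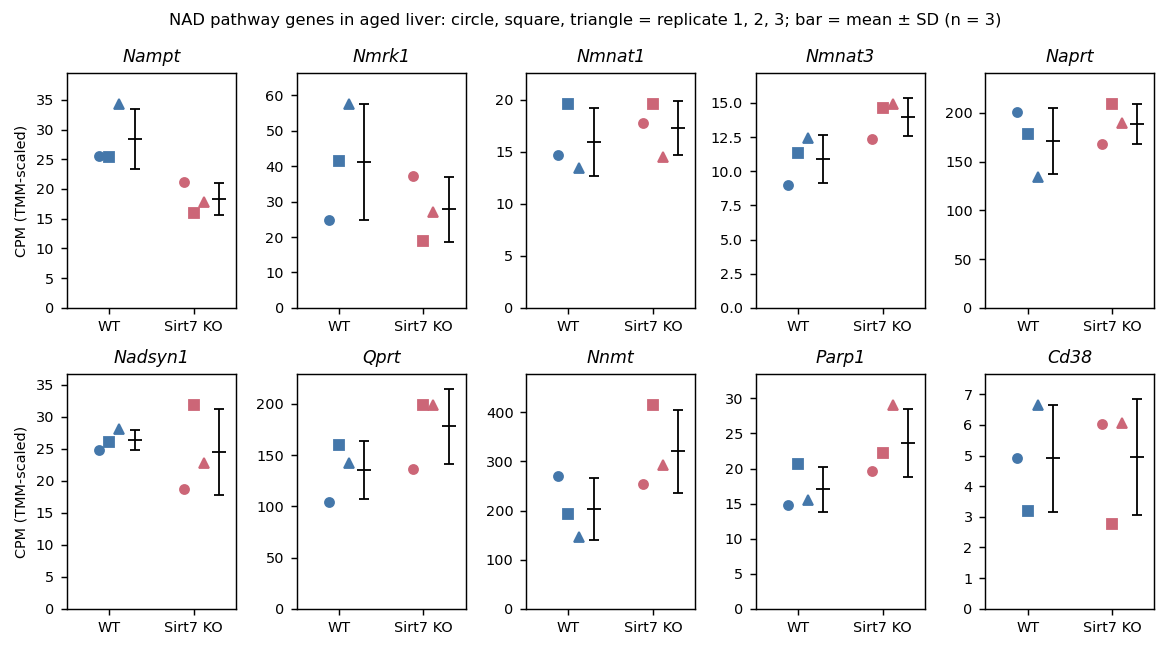
CPM of the 10 genes in each mouse, with a panel for each gene, a point for each mouse (circle, square and triangle for replicates 1, 2 and 3), and the mean ± SD of each genotype. The 3 KO points of *Nampt* lie below all 3 WT points, and the groups overlap in the other panels.

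In the nicotinic acid route, *Naprt* (ENSMUSG00000022574.7, chr15:75890956-75894481, minus strand), which joins nicotinic acid to a ribose phosphate, had 201, 178 and 134 CPM in WT mice and 168, 209 and 189 CPM in KO mice. The means of 171 ± 33.9 and 189 ± 20.6 CPM lay within the spread of either group. The log2 fold change was 0.14, with a 95% interval from -0.26 to 0.55 and an adjusted p = 0.82 in edgeR. Of the 31-base words in its transcripts, 10.2% also occur in transcripts of *Eef1d*, an overlapping gene on the same strand, so Salmon had to divide some reads between them. *Nadsyn1* (ENSMUSG00000031090.14, chr7:143795584-143822849, minus strand), which amidates the nicotinic acid form to NAD, had 24.9, 26.1 and 28.0 CPM in WT mice and 18.8, 31.9 and 22.7 CPM in KO mice. The KO mice enclosed the WT mice on both sides, with a coefficient of variation of 27.5% in KO and 6.0% in WT mice. Its log2 fold change of -0.11 ± 0.20 had an adjusted p = 0.89 in edgeR. Of its reads, 12.5 to 81.8% were assigned to protein-coding transcripts, chiefly that with 21 exons, and most others to transcripts annotated as targets of nonsense-mediated decay, with mice of both genotypes at either end.

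*Qprt* (ENSMUSG00000030674.5, chr7:127107114-127122226, minus strand) turns quinolinate into the nicotinic acid mononucleotide. It had 104, 160 and 142 CPM in WT mice and 136, 199 and 199 CPM in KO mice. KO replicates 2 and 3 were above all WT mice, while KO replicate 1 lay among them. The means were 135 ± 28.4 and 178 ± 36.4 CPM, and the log2 fold change of 0.40 ± 0.21 had an adjusted p = 0.54 in edgeR.

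*Nnmt* (ENSMUSG00000032271.13, chr9:48591877-48605153, minus strand), the methyltransferase that turns nicotinamide into methylnicotinamide with S-adenosylmethionine, had 271, 193 and 146 CPM in WT mice. In KO mice it had 255, 415 and 292 CPM. WT replicate 1 was above KO replicate 1, and the other 2 KO mice were above all WT mice. In TPM only KO replicate 2 (449) was above all WT mice. There WT replicate 1 had 321.1 TPM, against 258.2 in KO replicate 1 and 320.5 in KO replicate 3. The means of 203 ± 63.3 and 321 ± 84.1 CPM (SD, n = 3 each) differed 1.58-fold, with a 95% interval from 1.05 to 2.37. The log2 fold change was 0.66 ± 0.26, with an adjusted p = 0.38 in edgeR, so it was not called, and an unadjusted p = 0.032 beside an exact permutation p = 0.2. With no filter on low counts the adjusted p was 0.031 and *Nnmt* was called, in a fit that called 2.27% of 27881 genes. Without KO replicate 2, the mouse with the highest level, the log2 fold change was 0.43.

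The reads of *Nnmt* fell mainly on 2 coding transcripts. The 3-exon coding transcript took 79.7, 78.5 and 73.1% of its reads in WT mice and 82.4, 83.1 and 84.0% in KO mice, a difference of 6.06 percentage points with no overlap. A 4-exon coding transcript took 19.4, 18.9 and 25.9% in WT mice and 17.3, 16.3 and 14.5% in KO mice. Of 21 transcripts of the 10 genes with a mean of at least 20 reads in either genotype, these 2 were without overlap in share, against 9.02% of such transcripts over all genes, which is about the same share. Each gave the smallest exact permutation p = 0.1. The shares within a gene sum to the whole, so these are not separate findings, and Salmon estimates them from reads that fit both transcripts.

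Among the consumers, *Parp1* (ENSMUSG00000026496.11, chr1:180568924-180601254, plus strand), the polymerase that builds poly(ADP-ribose) at DNA breaks, had 14.8, 20.7 and 15.5 CPM in WT mice and 19.6, 22.3 and 29.1 CPM in KO mice. WT replicate 2 was above KO replicate 1, and the other pairs of mice were in the opposite order. In TPM the groups did not overlap, with 4.77 to 5.99 in WT mice and 6.49 to 7.55 in KO mice. The means were 17.0 ± 3.20 and 23.6 ± 4.90 CPM, and the log2 fold change of 0.48 ± 0.21 had an adjusted p = 0.42 in edgeR and was not called. The unadjusted p = 0.046 stood beside an exact permutation p = 0.2. With length offsets the log2 fold change was 0.37 in edgeR (unadjusted p = 0.095) and 0.38 in DESeq2 (unadjusted p = 0.15). Without KO replicate 3 the log2 fold change was 0.30.

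*Cd38* (ENSMUSG00000029084.5, chr5:43868553-43912375, plus strand), a surface enzyme that cleaves NAD and is known from immune cells, had 26 to 90 reads per mouse. Its level was 4.91, 3.18 and 6.66 CPM in WT mice and 6.04, 2.76 and 6.07 CPM in KO mice. The means of 4.91 ± 1.74 and 4.96 ± 1.91 CPM were nearly equal. The mice of a genotype differed widely, with a coefficient of variation of 35.4% in WT and 38.5% in KO mice. With this spread and depth, the 95% interval of the fold change ran from 0.54 to 1.87. Changes within that range could not be told from none, and the adjusted p was 0.99 in edgeR. The summed level of 10 Kupffer cell and macrophage markers was 91.5, 99.4 and 236 CPM in WT mice and 241, 90.6 and 178 CPM in KO mice. The 3 mice with the lowest *Cd38* were also the 3 with the lowest marker sum, in both genotypes, and the part of these cells in the *Cd38* level was not tested. The 7 B and plasma cell markers summed to 15.0 to 19.2 CPM in WT mice and 11.8 to 17.9 CPM in KO mice.

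For the tissue as a whole, 6 hepatocyte markers summed to 40874 to 44665 CPM in WT mice and 41574 to 51059 CPM in KO mice. Markers of sinusoidal endothelial cells (56.6 to 77.6 CPM in WT, 66.3 to 95.4 in KO), stellate cells (162 to 205 and 133 to 208) and cholangiocytes (41.9 to 66.8 and 48.7 to 60.6) overlapped between the genotypes. Those of T and NK cells (2.27 to 6.18 and 1.80 to 3.30) and neutrophils (1.09 to 4.06 and 1.48 to 6.04) were near 0, and *Ly6g* had 0 reads in all 6 mice. No marker gene of these 8 lists had an unadjusted p-value under 0.05.

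KO replicate 1 stood apart from KO replicates 2 and 3 for several of these genes. Without it, 5 of the 10 genes did not overlap between genotypes (*Nampt* lower, and *Nmnat3*, *Qprt*, *Nnmt* and *Parp1* higher in KO mice), against 36.4% of all genes in that fit. There were also 5 at an unadjusted p-value under 0.05 (*Nampt*, *Nmrk1*, *Qprt*, *Nnmt* and *Parp1*), against 17.1% of all genes. The count called stayed at 0, against 1.95%, with *Nampt* lowest at an adjusted p = 0.097 in edgeR.

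The enzymes upstream of *Qprt*, which take tryptophan through kynurenine to quinolinate, were read next. The list also held *Acmsd*, which leads away from quinolinate. Of 8 listed genes 7 were tested, and 4 were higher in KO mice at an unadjusted p-value under 0.05 and 0 lower, with a median log2 fold change of 0.55 (-0.01 over all tested genes). Over all tested genes, 6.54% were higher and 4.78% lower at this threshold. None of the 7 was called by edgeR. DESeq2 called 1, *Acmsd*, without and with length offsets, against 2.11% and 1.81% of all genes. *Acmsd*, which diverts an intermediate away from quinolinate and so away from NAD, had 5.67, 8.07 and 8.14 CPM in WT mice and 10.6, 40.4 and 29.1 CPM in KO mice. All KO mice were above all WT mice, KO replicate 1 least so. Its log2 fold change of 1.87 ± 0.42 had an adjusted p = 0.17 in edgeR. *Haao*, which makes the precursor that closes to quinolinate, had 358, 431 and 444 CPM in WT mice and 418, 773 and 685 CPM in KO mice, a log2 fold change of 0.60 (adjusted p = 0.36 in edgeR). *Kynu*, which cleaves hydroxykynurenine, had 86.8, 74.4 and 75.8 CPM in WT mice and 80.0, 136 and 131 CPM in KO mice, a log2 fold change of 0.55 (adjusted p = 0.36). KO replicates 2 and 3 were the highest mice for *Acmsd*, *Haao*, *Kynu* and *Qprt*, and KO replicate 1 was within the WT range for *Haao*, *Kynu* and *Qprt*. *Ido2*, an entry enzyme, had a log2 fold change of 0.71 (adjusted p = 0.42), or 0.40 without WT replicate 1. *Tdo2*, the main entry enzyme of liver, had 949, 1844 and 1406 CPM in WT mice and 1197, 1161 and 1148 CPM in KO mice, with a log2 fold change of -0.26 (adjusted p = 0.72). Of the 7 tested genes, 6 were higher in KO mice and 1, *Tdo2*, was lower. *Ido1* (0 to 1 reads per mouse) was left untested. Without KO replicate 1, 3 of the 7 were called, against 1.95% of all genes in that fit. At an unadjusted p-value under 0.05 there was 1 higher without KO replicate 2 or 3. There were 2 higher without WT replicate 2 or 3, and 2 higher and 1 lower without WT replicate 1.

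**Figure D4:**
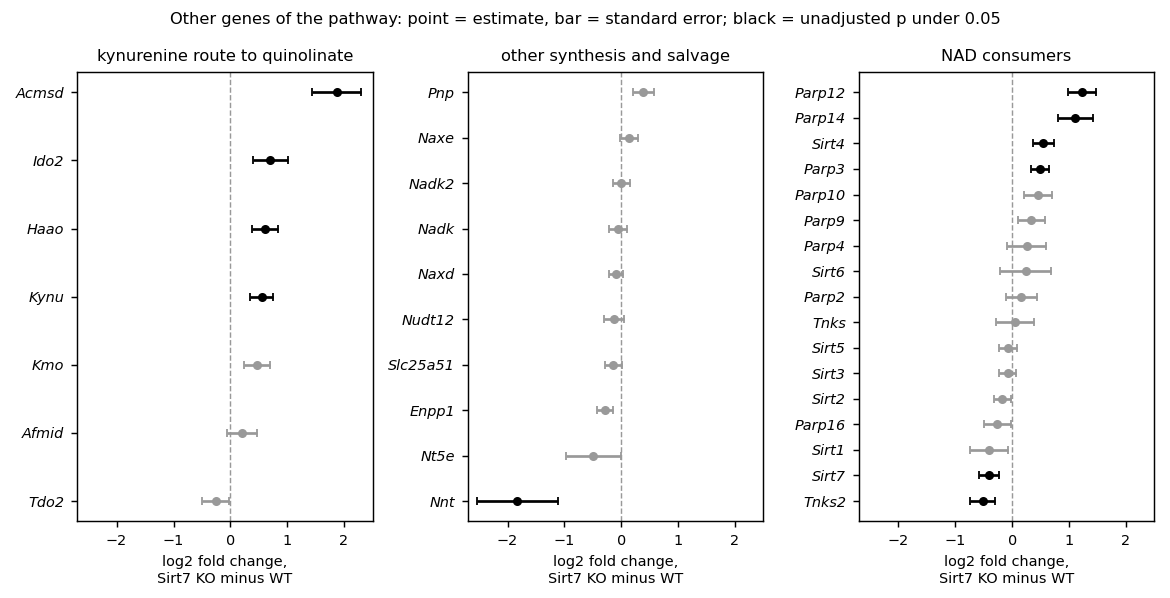
Log2 fold change (KO over WT) ± SE by edgeR of the other genes of NAD metabolism, in 3 panels for the kynurenine route, other synthesis and salvage genes, and other NAD consumers, with black points for an unadjusted p-value under 0.05. The kynurenine panel holds 4 such points, all above 0, the synthesis panel 1 (*Nnt*, -1.83) and the consumer panel 4 above and 2 below 0.

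Of 13 other genes of synthesis, phosphorylation and salvage, 10 were tested, with a median log2 fold change of -0.11, and only *Nnt* passed the unadjusted threshold. *Nnt*, the mitochondrial enzyme that exchanges hydrogen between NADH and NADPH and is known to be partly deleted in C57BL/6J mice, had 12.1, 6.35 and 38.8 CPM in WT mice and 8.70, 1.48 and 5.88 CPM in KO mice. WT replicate 3 was far above the other 5 mice. The log2 fold change of -1.83 ± 0.71 had an adjusted p = 0.37 in edgeR, and the groups overlapped. Without WT replicate 3 the log2 fold change of *Nnt* was -0.77 and the unadjusted threshold was no longer passed. *Nmrk2*, *Nmnat2* and *Slc12a8* had too few reads to be tested, with at most 10 per mouse.

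Of 3 enzymes that oxidize nicotinamide derivatives or nicotinamide, 0 passed the unadjusted threshold, and their median log2 fold change was 0.11. Of 5 enzymes that supply or use methyl groups, and so share S-adenosylmethionine with *Nnmt*, 1 did. This was *Gamt*, the creatine-forming methyltransferase, with 51.1, 100 and 129 CPM in WT mice and 117, 194 and 185 CPM in KO mice, a log2 fold change of 0.82 (adjusted p = 0.38 in edgeR), or 0.52 without WT replicate 1. *Gnmt*, the glycine methyltransferase of liver, had 3619 ± 340 CPM in WT mice and 4709 ± 1654 CPM in KO mice, a log2 fold change of 0.38 (adjusted p = 0.65). KO replicate 1, at 2845 CPM, was below all WT mice (3363 to 4005 CPM). Of the 5 enzymes, 3 were higher and 2 lower in KO mice, with a median log2 fold change of 0.00. The lower ones were *Ahcy* at -0.26 (adjusted p = 0.59) and *Mat1a* at -0.16 (adjusted p = 0.83).

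Other NAD consumers were measured for 17 of 19 listed genes, with 4 higher and 2 lower in KO mice at an unadjusted p-value under 0.05 and a median log2 fold change of 0.16. The shares over all tested genes were 6.54% higher and 4.78% lower. None of the 17 was called by edgeR. DESeq2 called 1, *Parp12*, without and with length offsets, against 2.11% and 1.81% of all genes. *Parp12*, an interferon-induced mono-ADP-ribosyltransferase, had 7.11, 9.62 and 14.1 CPM in WT mice and 27.1, 23.0 and 22.2 CPM in KO mice without overlap. Its log2 fold change was 1.22 ± 0.25 (adjusted p = 0.15 in edgeR). *Parp14*, also interferon-induced, had a log2 fold change of 1.11 (adjusted p = 0.23). *Parp3*, which acts at DNA breaks, had 0.49 (adjusted p = 0.29). Both were without overlap in CPM, but both overlapped in TPM. With length offsets in edgeR, *Parp14* had 0.68 (unadjusted p = 0.25) and *Parp3* 0.40 (unadjusted p = 0.18). *Sirt4*, a mitochondrial sirtuin, had 9.82, 8.89 and 9.39 CPM in WT mice and 12.0, 14.0 and 15.1 CPM in KO mice, with a log2 fold change of 0.55 (adjusted p = 0.32). The lower genes were *Sirt7* itself at -0.41, which turned to 0.80 with length offsets as given above, and *Tnks2*, a tankyrase, at -0.52 (adjusted p = 0.42 for both). *Sirt1*, the sirtuin most often tied to NAD supply, had 3.37 ± 0.54 CPM in WT mice and 2.53 ± 0.50 CPM in KO mice, a log2 fold change of -0.41 (adjusted p = 0.70). Of the 6 tested genes listed under ADP-ribose removal, not all of which take it off proteins, 0 passed the unadjusted threshold. Their median log2 fold change was -0.03.

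*Nampt* is known as a clock-controlled gene, and the core clock genes were therefore read beside it. Of 18 tested, 6 were lower in KO mice at an unadjusted p-value under 0.05 (*Per1*, *Per2*, *Per3*, *Dbp*, *Tef* and *Ciart*, with log2 fold changes from -2.08 to -0.88) and 1 higher (*Arntl*, which encodes BMAL1, 1.45), against 4.78% lower and 6.54% higher over all tested genes. Without WT replicate 3 there was 1 lower at this threshold. With length offsets, the 18 genes divided into 9 higher and 9 lower, with a median log2 fold change of 0.00 in edgeR (-0.15 without offsets). At an unadjusted p-value under 0.05 that fit still had 6 lower and 1 higher, though *Per1* (unadjusted p = 0.44) no longer passed. The share over all genes was not computed for that fit. None was called by edgeR, while DESeq2 called 2 without and 3 with length offsets, against 2.11% and 1.81% of all genes. The hour at which each liver was taken was not given in the sources used here.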

How the data were processed

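Liver RNA-seq of 3 WT and 3 *Sirt7* KO mice was used, grouped by genotype as in the sample labels. The authors made libraries with the SMART-seq HT and Nextera XT kits, trimmed single-end reads with Trim Galore 0.6.5 and quantified them on GRCm38 transcripts with Salmon 1.2.1. The authors deposited estimated counts per transcript, which are not normalized, and TPM, scaled by Salmon to effective length. The effective length of a transcript was the same in every mouse. The annotation release was not given in the sources used here.

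Estimated counts were summed over the transcripts of each GENCODE M21 gene and rounded. Of 140992 transcripts, 139172 matched with the same version and 619 with another, and 1201 (0.303 to 0.492% of reads) had no gene and were left out. Differential expression was tested with edgeR 4.0.16 in R 4.3.3 by quasi-likelihood, with TMM factors, the filterByExpr defaults (minimum count 10), no covariate and two-sided p-values. Exact permutation tests were two-sided, on log2(CPM + 0.5). Each library was taken as 1 mouse, since the labels name biological replicates. Libraries of a genotype differed by more than counting noise (chi-square per gene 16.9 or more). This cannot tell separate mice from repeat libraries of 1 mouse, which can also differ by more than counting noise. No molecular identifiers were named, so depth covers counting error only. The kit is not stated to mark strand, so *Cd38* and *Nmnat1*, which have genes on the opposite strand, may include reads of these.

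The text names the 10 genes, *Sirt7*, any gene of the pathway lists with an unadjusted p-value under 0.05, and genes that a sentence on these turns on. Genes and lists were chosen with earlier results of these data known. *Gnmt*, *Ahcy*, *Mat1a*, *Tdo2* and *Sirt1* did not pass that threshold and were named after their values were seen. Alternatives were RLE, upper quartile and total-count scaling, other filters, length offsets, DESeq2 1.42.0, a block for the replicate number, other thresholds and leaving out each mouse. Motifs and shared words were found with Python 3.11.15.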

Additional observations from a re-analysis of the deposited data

How the results depend on the processing

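Under 15 alternatives each, 8 of the 10 genes did not turn to the opposite sign. Without WT replicate 3, *Naprt* went from 0.14 to 0.00 and *Nmnat1* from 0.12 to 0.01. *Nampt* ran from -0.75 to -0.47 on the log2 scale (adjusted p from 0.094 to 0.64), *Nnmt* from 0.43 to 0.92 (0.031 to 0.78) and *Parp1* from 0.30 to 0.64 (0.19 to 0.77). *Cd38*, at 0.01, turned to -0.10 with total counts, to -0.039 and -0.049 with length offsets in DESeq2 and edgeR, to -0.0053 with the replicate block, and to -0.22, -0.15 and -0.16 without WT replicate 2, KO replicate 1 and KO replicate 3. *Nadsyn1*, at -0.11, turned to 0.052 without KO replicate 1 and ran to -0.34 without KO replicate 2. The cause was not tested.

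The count of the 10 genes called was 0 except with no filter on low counts (1, *Nnmt*) and at an unadjusted p-value with a fold change over 1.5 (2). The count at an unadjusted p-value under 0.05, 3, was 1 with total counts and with length offsets in either tool, 5 with no filter, and 1 to 5 when a mouse was left out. The 1 gene was *Nampt* with total counts and *Nnmt* with length offsets. The count without overlap, 1, was 2 with upper quartile scaling, 2 with a mean of at least 50 counts, and 1 to 5 when a mouse was left out. Over all genes, 1 was called, against 2 with total counts, 633 with no filter, 257 and 240 with DESeq2 without and with length offsets, 2 with edgeR and length offsets, 25 at an adjusted p-value under 0.1 and 925 at an unadjusted one with the fold limit. Leaving out a mouse gave 0 to 252, the highest without KO replicate 1. Total counts shifted the median of all genes to -0.11 on the log2 scale.

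With the replicate number as a block, 41 genes were called in all and 0 of the 10. Deviations of same-numbered mice correlated at 0.06, 0.07 and -0.05. WT replicates 1 and 2 correlated best with their own number, and WT replicate 3 did not. Whether the numbers pair the mice cannot be told from 3 mice per genotype. *Cd38*, with 26 to 90 reads per mouse, had the fewest reads of the 10 genes.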

Other observations

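As a description chosen after the values were seen, the ratio of *Nnmt* to *Nampt* in TPM, 2 genes that compete for nicotinamide, was 59.8, 36.7 and 22.3 in WT mice and 58.9, 146 and 61.9 in KO mice. KO replicate 2 had the highest *Nnmt* and the lowest *Nampt* and *Nmrk1* of the 6 mice. The ratio of KO replicate 1 was below that of WT replicate 1, so the genotypes overlapped, and no test was made.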
